A study of Mus musculus with 24 samples.

Results

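The DNA replication and S phase genes described here are the rows of the deposited count table whose symbol is on a list of 52 names, out of 54532 genes. All 52 names were found once each, and all 52 passed the filter on low counts that left 15035 genes. They cover 8 roles, with 11 genes of origin licensing, 6 of helicase activation, 9 polymerase and primase subunits, 6 of the sliding clamp and its loader, 6 of single-strand binding and strand maturation, 5 of nucleotide supply, 4 regulators of entry into S phase and 5 of chromatin assembly, histone mRNA and fork control. Bone marrow of mice was expanded to macrophages, and their RNA was sequenced in 24 libraries that form 8 groups of 3. The Runx1-labelled cells, whose genotype label is Runx1 overexpression, are named for a Runx1 transgene at the Rosa26 locus together with LysM-Cre, a Cre recombinase driven from the lysozyme gene Lyz2 of myeloid cells. The control cells, labelled as wild type, are named for that transgene without Cre, so that both genotypes carry it. Both genotypes were cultured for 5 or 3 days, either in osteoclast medium with 50 ng/mL RANKL and 30 ng/mL M-CSF or in M-CSF alone, at a dose that the labels leave out. Wells were seeded with 15000 cells, and 250 ng of RNA entered each library. The libraries are numbered 1 to 3 in each group, no label says whether a number marks an animal or a culture, and p-values reflect how far these samples spread, whatever share of it is technical. Age, sex and strain are likewise not given.

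DNA replication starts when the origin recognition complex, Cdc6 and Cdt1 load the Mcm2 to Mcm7 helicase onto origins, and it proceeds once kinases, Cdc45 and the GINS complex activate that helicase. Polymerases then copy both strands behind the clamp Pcna, while ribonucleotide reductase, thymidylate synthase and thymidine kinase supply nucleotides. Many of these genes are transcribed by E2F factors when cyclin E and its kinase release the retinoblastoma protein. M-CSF is the growth and survival factor of macrophages, and RANKL is the cytokine that turns them into multinucleated osteoclasts, a change that is preceded by cell division and followed by exit from the cell cycle.

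Library totals lay between 18975750 and 36523995 counts, and 1 read was worth 0.0286 to 0.0542 CPM (counts per 1000000, on TMM-scaled library sizes). Runx1 checks the genotype labels, and its log2 difference between Runx1-labelled and control cells was 0.23 at day 5 and 0.17 at day 3 with RANKL, and 0.00 and 0.12 at those days in M-CSF alone (edgeR quasi-likelihood test, adjusted p = 1 in each). The transcript was thus not measurably higher where the label calls for overexpression, and the libraries are named by their label. Every library carries the cell type label of osteoclasts. The 10 osteoclast markers summed to 36219.6 to 59916 CPM with RANKL, against 111 to 175 CPM in M-CSF alone, where the 10 macrophage markers were at 7930.4 to 9532 CPM. Library 3 of the 4 Runx1-labelled groups carried Y-linked transcripts and almost no Xist, unlike the other libraries. Number 3 of those groups therefore came from another animal than numbers 1 and 2.

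Per length, Pcna was the highest of the 52 genes in all 8 groups, and Mcm6 was next in all but 1 of them. On a scale of reads per kilobase (RPKM, CPM divided by gene length, group means), Pcna stood at 122 in Runx1-labelled and 120.0 in control cells at day 5 with RANKL, and at 165 in Runx1-labelled and 176 in control cells without RANKL at that day. The median gene was at 11.0 RPKM in Runx1-labelled and 10.0 RPKM in control cells with RANKL, and at 8.50 RPKM in Runx1-labelled and 7.68 RPKM in control cells without it. Exo1, an exonuclease, or Orc1, the largest subunit of the origin recognition complex, was lowest, at 0.739 to 2.03 RPKM. No member was near the floor of detection, since the lowest count of any of the 52 genes in any library was 51 reads.

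The sum of the 52 replication genes moved with the day under RANKL and kept a high level in M-CSF alone at day 5, when mitosis genes were low. The 52 genes summed to 3006, 3678 and 3045 CPM in Runx1-labelled libraries 1 to 3 at day 5 with RANKL, against 1703, 1704 and 2223 CPM at day 3. In control cells with RANKL the sums were 3153, 2998 and 3156 CPM at day 5, against 1616, 1791 and 2327 CPM at day 3. All 6 sums of day 5 lay above all 6 of day 3.

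In M-CSF alone the order of days was not so clear. Runx1-labelled cells had 3251, 3442 and 3407 CPM at day 5, against 3349.5, 1918 and 3969.9 CPM at day 3. Control cells had 3175, 3145 and 3149 CPM at day 5, against 1579.6, 3044 and 3779.8 CPM at day 3. The 3 libraries of each day 3 group spread widely around those of day 5. In these bulk samples, a smaller share of cells in S phase and less of the transcript per cell cannot be told apart.

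**Figure D1:**
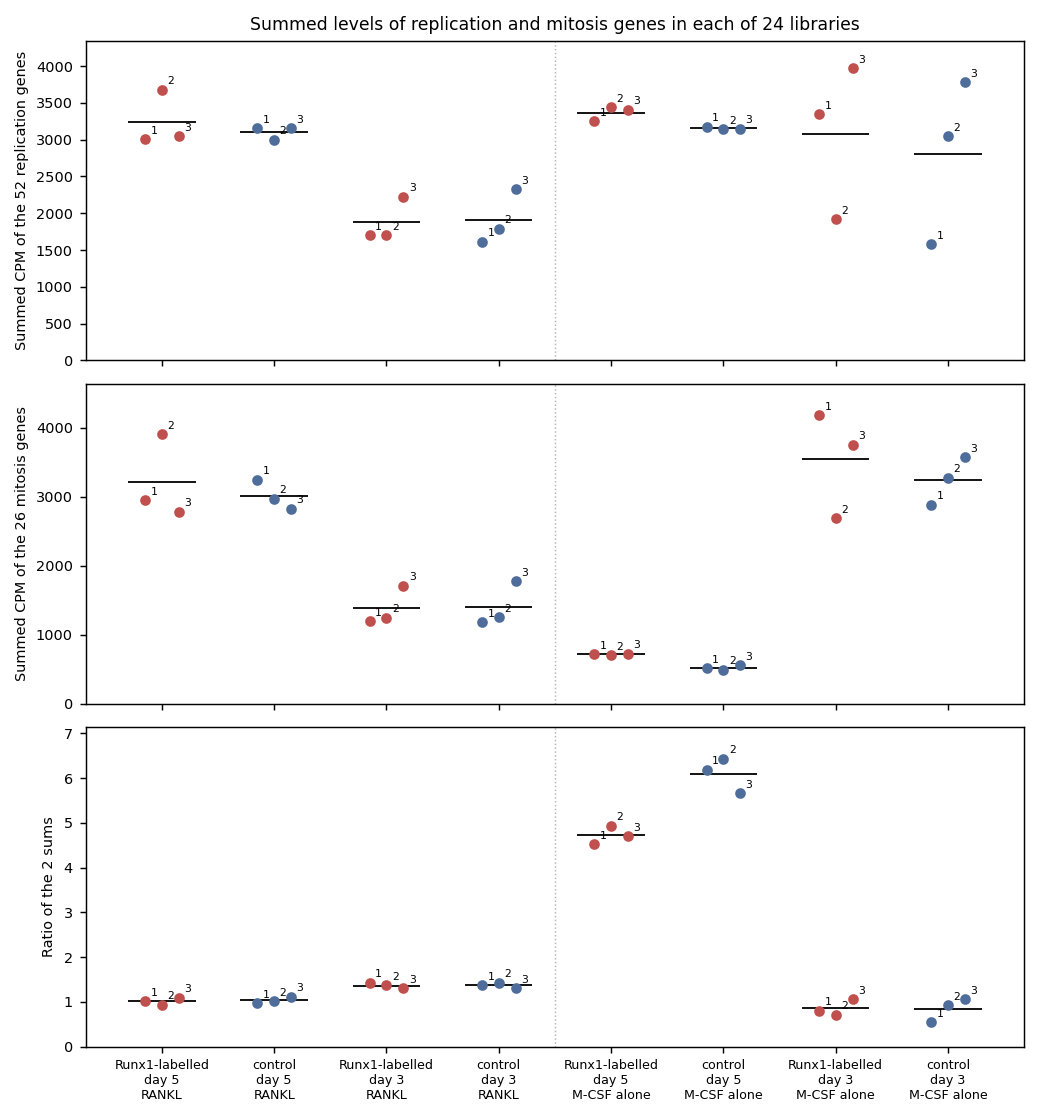
Summed CPM of the 52 replication genes (top) and of 26 mitosis genes (middle) and the ratio of both sums (bottom), with 1 point per library, its number beside it and a bar at the mean of 3; red is Runx1-labelled and blue is control. The ratio is 4.53 to 4.94 in Runx1-labelled and 5.67 to 6.43 in control cells when M-CSF was given alone for 5 days, and at most 1.43 in the other groups.

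The 26 mitosis genes, a list that holds none of the 52, parted from the replication genes in M-CSF alone. At day 5 in M-CSF alone they summed to 718, 698 and 724 CPM in Runx1-labelled cells, against 4179.7, 2689 and 3754 CPM at day 3. Control cells had 513, 489 and 555 CPM at day 5, against 2881, 3278 and 3574 CPM at day 3. All 26 genes fell there in both genotypes, by a median log2 change of −2.32 in Runx1-labelled and −2.74 in control cells. Ccnb2, a mitotic cyclin, changed by −4.07 in Runx1-labelled and −4.52 in control cells there, Kif20a and Kif23, kinesins of cell division, by −2.93 in Runx1-labelled and −3.26 in control cells and by −2.12 in Runx1-labelled and −2.35 in control cells, and Bub1b of the spindle checkpoint by −2.13 in Runx1-labelled and −2.66 in control cells. With RANKL, 25 of 26 rose with the day in each genotype. The sum of the 52 replication genes over that of the 26 mitosis genes was 4.72 ± 0.205 in Runx1-labelled cells and 6.10 ± 0.390 in controls at day 5 without RANKL (SD, n = 3 each). With RANKL the ratio was 1.02 ± 0.0772 in Runx1-labelled and 1.03 ± 0.0751 in control cells at day 5, and 1.36 ± 0.0619 in Runx1-labelled and 1.37 ± 0.0611 in control cells at day 3.

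Much of the spread at day 3 in M-CSF alone came from 1 library in each genotype. In Runx1-labelled library 2, the 52 genes were at a median of 51.3% of the mean of the other 2 libraries, and 51 of 52 were lower than in both. In control library 1 the median was 49.8%, and 52 of 52 were lower than in both. Among 11918 genes with at least 1 CPM on average, 38.0% and 41.98% were lower than in both other libraries. Origin licensing genes were the furthest down of the 8 roles, at a median of 43.4% in Runx1-labelled library 2 and 31.5% in control library 1, and the clamp and its loader the least, at 64.3% and 67.3%. Mitosis genes were at 67.1% and 83.6%, and macrophage markers at 105% and 103%. Both libraries also had the highest lymphoid marker sum of their group, at 119 and 154 CPM, nearly all from Ighm, with Cd3e and Cd3g at 0 counts in all 24 libraries. Whether these features bear on one another was not tested. The groups of day 3 in M-CSF alone had a median coefficient of variation over the 52 genes of 35.1% in Runx1-labelled and 38.1% in control cells, against 5.06% and 4.75% at day 5. Counts of called genes among the 52 that use these groups are given below with and without the 2 libraries. Values of roles and of single genes include both libraries.

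**Figure D2:**
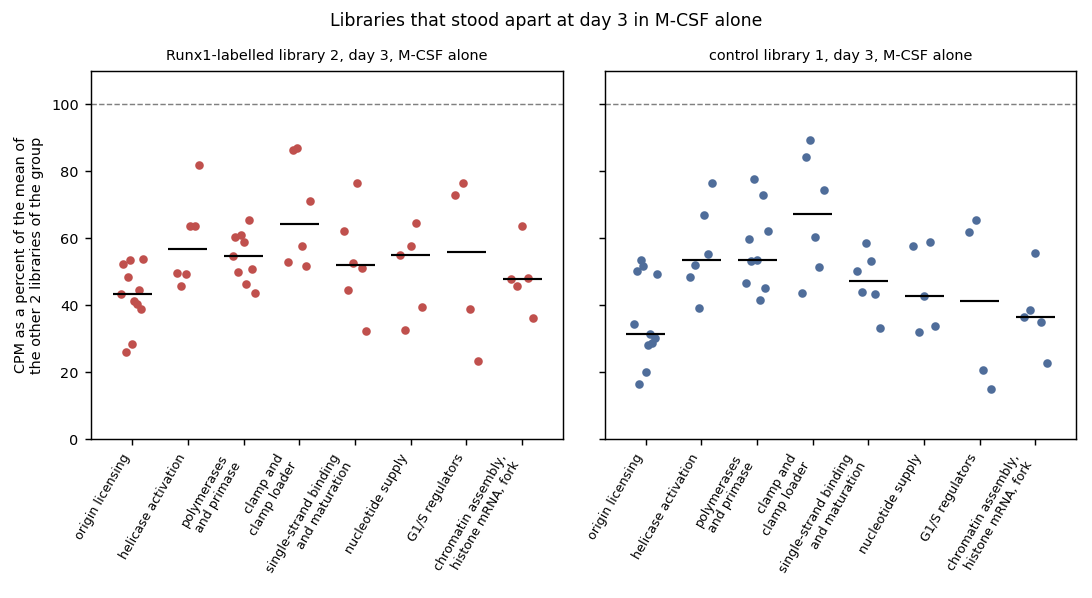
Level of each of the 52 genes in Runx1-labelled library 2 (left) and control library 1 (right) at day 3 in M-CSF alone, as a percent of the mean CPM of the other 2 libraries of the group, by role. Points are genes, bars are medians, and the dashed line marks 100%; every point lies under that line.

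**Figure D3:**
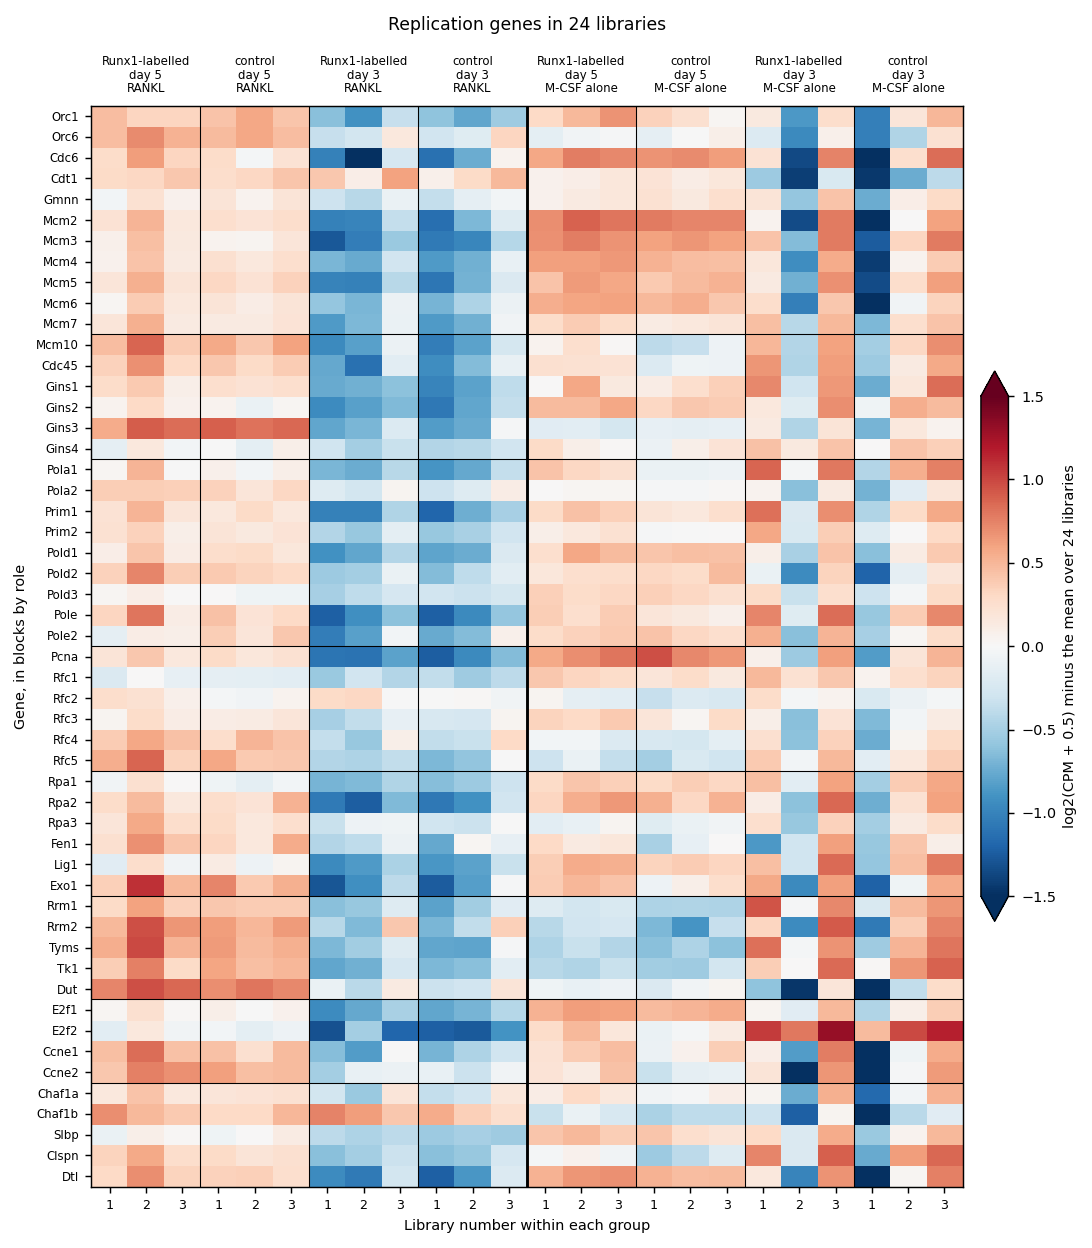
Each row is a gene, in blocks by role, and each column a library; colour gives log2(CPM + 0.5) minus the mean of the gene over 24 libraries. Columns of day 3 with RANKL are mostly blue, the origin licensing rows are red at day 5 in M-CSF alone, and Runx1-labelled library 2 and control library 1 stand apart at day 3 in M-CSF alone.

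Comparisons between days, between media and of the change in the response were made in Runx1-labelled and in control cells with edgeR's quasi-likelihood test and Benjamini-Hochberg adjustment over all 15035 genes, and differences were called at an adjusted p under 0.05. With RANKL, 35 of the 52 genes were higher at day 5 than at day 3 in Runx1-labelled cells and 0 lower, where 17.6% of all genes were higher and 15.6% lower. In control cells 23 of the 52 were higher and 0 lower, where 14.1% of all genes were higher and 12.7% lower. The median log2 change of the 52 genes was 0.87 in Runx1-labelled and 0.73 in control cells, where that of all genes tested was −0.02 in Runx1-labelled and 0.00 in control cells. The genotypes shared 22 of these genes, 62.9% of the calls in Runx1-labelled cells and 95.7% of those in control cells. In 47 of 52 genes in each genotype, all 3 libraries of day 5 lay above all 3 of day 3, as did 27.5% of genes with at least 1 CPM on average in Runx1-labelled and 30.0% in control cells. Single libraries moved the count of calls. Without Runx1-labelled library 1 of day 3, library 2 of day 3 or library 2 of day 5, 19, 20 and 18 genes were higher. Without control library 1 or library 2 of day 3, 12 and 13 were. Without all 4 libraries numbered 2, 13 were higher in Runx1-labelled and 3 in control cells. When the spread was taken from the 2 groups compared, 47 were higher in Runx1-labelled and 45 in control cells. The shares of all genes in these alternative fits are not given here, so these counts are not set against a background.

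In M-CSF alone few of the 52 genes were called. In Runx1-labelled cells 1 of 52 was higher and 5 were lower at day 5 than at day 3, where 7.17% of all genes were higher and 7.08% lower. In control cells 3 were higher and 5 lower, where 12.2% of all genes were higher and 11.5% lower. The counts of the 52 were near or under the background. The lower genes were Rrm1, Tyms, Tk1, Rfc5 and E2f2 in both genotypes. Cdt1 was higher in both, and Pcna and E2f1 were higher in control cells. The call of E2f1, 0.48 (SE 0.17, adjusted p = 0.0468), was lost in 11 of 16 alternatives, among them library totals, no filter, the spread of only the 2 groups and leaving out the low libraries. That of Tyms was lost in 7 of 16 in Runx1-labelled and 8 of 16 in control cells. The median log2 change of the 52 was 0.15 in Runx1-labelled and 0.09 in control cells. Without the 2 low libraries of day 3, 1 was higher and 8 were lower in Runx1-labelled cells, where 5.42% of all genes were higher and 6.03% lower. In control cells 1 was then higher and 10 were lower, where 7.70% of all genes were higher and 7.37% lower. The median change of the 52 then turned to −0.14 in Runx1-labelled and −0.16 in control cells. These 2 libraries were set apart by their low levels of the same 52 genes, so leaving them out raises the day 3 level by construction. The counts without them are therefore no test against the background. Single libraries moved these counts. In Runx1-labelled cells, leaving out library 1, 2 or 3 of day 3 gave 0, 0 and 6 higher and 2, 5 and 3 lower genes, and leaving out library 1, 2 or 3 of day 5 gave 0, 0 and 0 higher and 3, 1 and 3 lower. In control cells, without library 1, 2 or 3 of day 3 there were 1, 1 and 9 higher and 7, 3 and 3 lower genes, and without library 1, 2 or 3 of day 5 there were 1, 1 and 1 higher and 3, 4 and 3 lower.

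**Figure D4:**
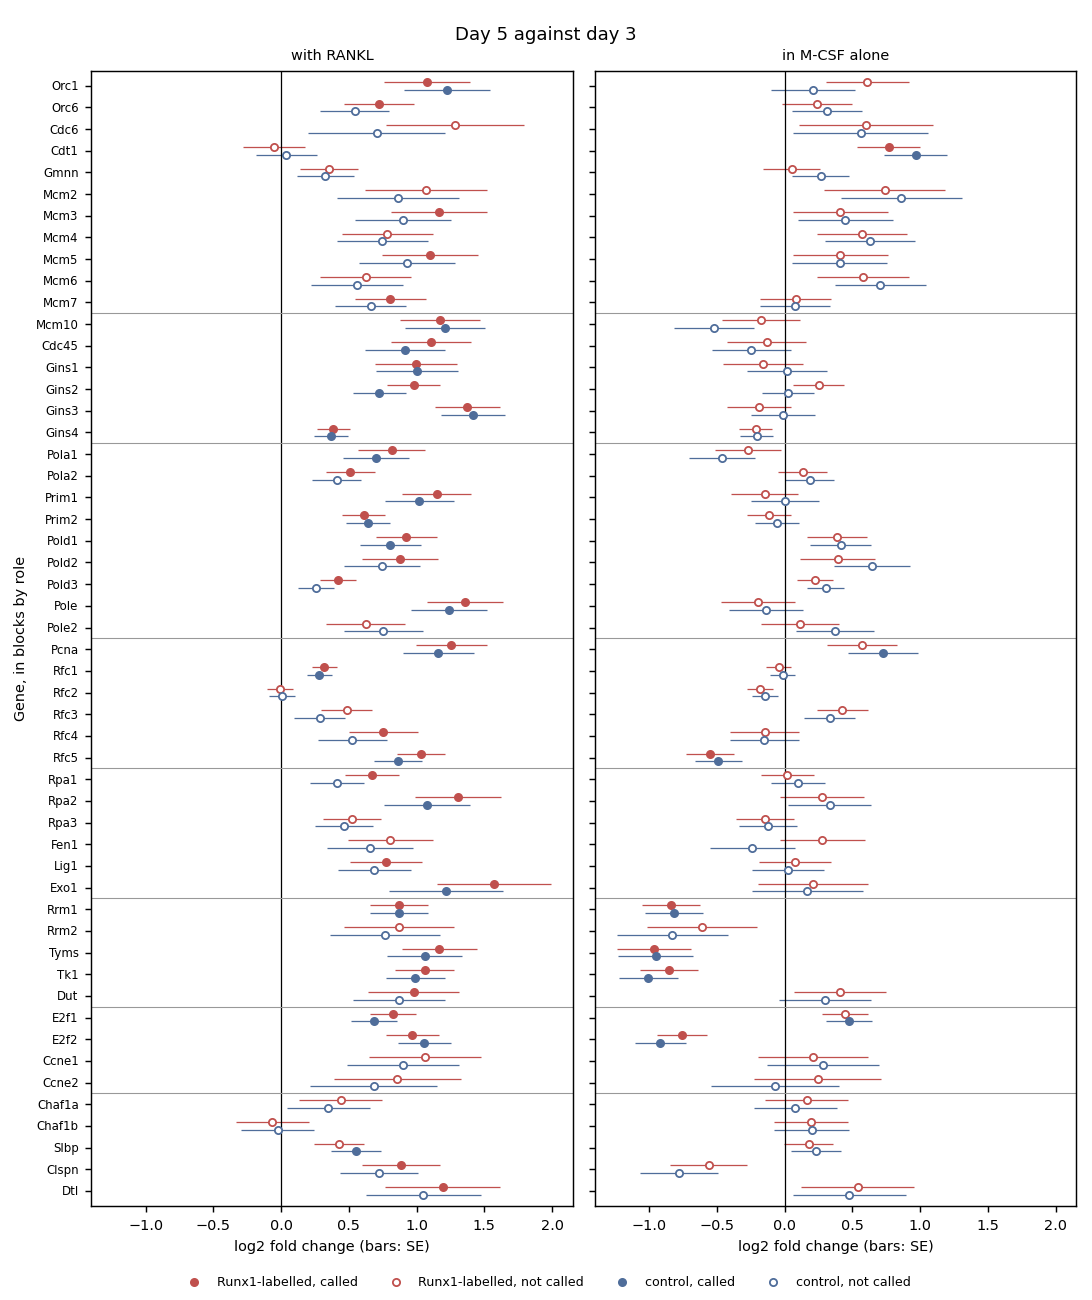
Log2 fold change of each gene at day 5 against day 3, with RANKL (left) and in M-CSF alone (right), in Runx1-labelled (red) and control cells (blue). Bars are SE and filled points are genes called at an adjusted p under 0.05; with RANKL the called genes all lie right of 0, and in M-CSF alone Rrm1, Tyms, Tk1, Rfc5 and E2f2 lie left of it.

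Between RANKL and M-CSF alone, most of the 52 genes that were called were lower with RANKL at day 3, and the calls were near or under the background at day 5. At day 3 in Runx1-labelled cells, 29 of 52 genes were lower and 2 higher with RANKL, where 30.1% of all genes were lower and 29.1% higher. In control cells 23 were lower and 2 higher, where 29.7% of all genes were lower and 29.5% higher. The median log2 difference was −0.75 in Runx1-labelled and −0.58 in control cells. All 3 libraries with RANKL lay below all 3 in M-CSF alone for 19 of 52 genes in Runx1-labelled and 8 in control cells. Of genes with at least 1 CPM on average, 32.6% lay wholly below in Runx1-labelled and 33.3% in control cells. By this measure the 52 genes were near the background in Runx1-labelled cells and under it in control cells. All 23 genes lower in control cells were also lower in Runx1-labelled cells, and the exceptions that were higher in both were Cdt1 and Chaf1b. Without the 2 low libraries, 45 of 52 were lower and 2 higher in Runx1-labelled cells, and 42 were lower and 2 higher in control cells. Of all genes, 28.8% were then lower in Runx1-labelled and 28.0% in control cells. Since the 2 libraries were set apart by their low levels of these 52 genes, these counts are no test against those shares. Without control library 3 of day 3 in M-CSF alone, 13 were lower in control cells.

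At day 5 in Runx1-labelled cells, 10 of 52 genes were higher and 2 lower with RANKL than in M-CSF alone, where 27.5% of all genes were higher and 24.9% lower. In control cells 11 were higher and 3 lower, where 26.4% of all genes were higher and 23.1% lower. The counts of the 52 in this fit, whose spread comes from all 24 libraries, did not exceed the background. All 3 libraries with RANKL lay above all 3 in M-CSF alone for 18 genes in Runx1-labelled and 25 in control cells. They lay below for 15 and 16. Of genes with at least 1 CPM on average, 36.8% lay wholly above and 34.1% below in Runx1-labelled cells. In control cells these shares were 38.7% and 34.1%. The median log2 difference was −0.02 in Runx1-labelled and 0.07 in control cells. Higher in both genotypes were Rrm1, Rrm2, Tyms, Tk1 and Dut of nucleotide supply, the GINS subunit Gins3, the clamp loader subunits Rfc2 and Rfc5, and Chaf1b; lower in both were Rfc1 and E2f1. When the spread was taken from the 2 groups compared, 17 genes were higher and 13 lower in Runx1-labelled cells, and 20 higher and 16 lower in control cells. The shares of all genes in those fits are not given here. Without single libraries of these groups the higher genes numbered 5 to 7 in Runx1-labelled cells and 5 to 9 in control cells. Those behind a count moved by over 1.5 times were in Runx1-labelled cells any of the 3 libraries in M-CSF alone, with 6, 5 and 5 higher genes, and library 2 with RANKL, with 5. In control cells they were any of the 3 libraries in M-CSF alone, with 5, 5 and 7, and library 1 or 3 with RANKL, with 7 and 6.

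**Figure D5:**
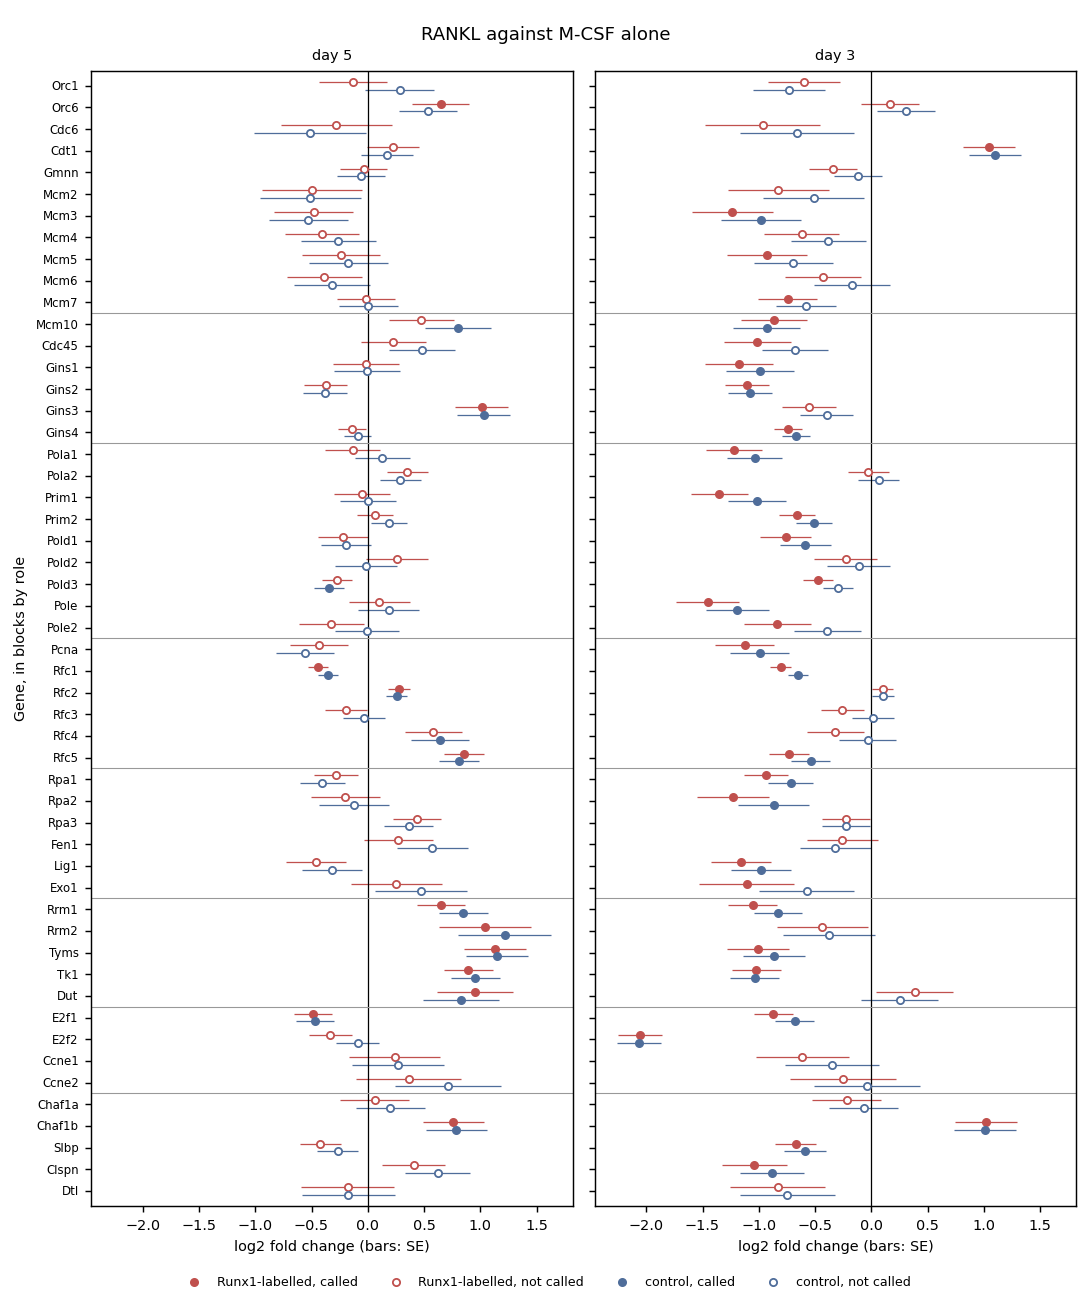
Log2 fold change of each gene with RANKL against M-CSF alone at day 5 (left) and day 3 (right), in Runx1-labelled (red) and control cells (blue). Bars are SE and filled points are genes called at an adjusted p under 0.05; at day 3 most called genes lie left of 0, with Cdt1 and Chaf1b right of it, and at day 5 the nucleotide supply genes lie right of 0.

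The change of the RANKL response between the days was tested as an interaction. The response was higher at day 5 than at day 3 for 14 of 52 genes in Runx1-labelled and 12 in control cells, and lower for 0 in each. Of all genes, 8.09% changed upward and 7.13% downward in Runx1-labelled cells, and 7.26% upward and 6.73% downward in control cells. The 12 genes called in both genotypes were Mcm10, Gins3 and Gins4 of helicase activation, Pola1, Prim2 and Pole, Rfc5, Rrm1, Tyms and Tk1, E2f2, and Clspn, a mediator of the fork checkpoint. The median change of the 52 was 0.67 in Runx1-labelled and 0.58 in control cells. Without the 2 low libraries, 40 changed upward and 1 downward in Runx1-labelled cells, and 33 upward and 1 downward in control cells. Of all genes, 10.8% then changed upward in Runx1-labelled and 8.18% in control cells. The choice of these libraries by the levels of the 52 genes makes these counts no test against those shares. Without Runx1-labelled library 2 of day 3 in M-CSF alone the upward count was 23, and without 1 other library it fell to 7 in control cells (library 3 of day 3 in M-CSF alone) and to between 7 and 9 in Runx1-labelled cells (library 2 of day 5 with RANKL, library 3 of day 5 in M-CSF alone, library 1 of day 3 with RANKL, or library 1 or 3 of day 3 in M-CSF alone).

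Origin licensing genes, which prepare origins for firing, had their highest mean sums at day 5 in M-CSF alone. Within each genotype the same held for the clamp and its loader, at 611 CPM in Runx1-labelled and 618 CPM in control cells. It also held for single-strand binding and maturation, at 335 and 314 CPM, and narrowly for polymerases and primase, at 351 and 327 CPM. The 11 licensing genes summed to 1192, 1277 and 1249 CPM in Runx1-labelled and 1169.8, 1182 and 1165 CPM in control libraries at day 5 in M-CSF alone. With RANKL at day 5 the sums were 947, 1176 and 981 CPM in Runx1-labelled and 999, 964 and 1028 CPM in control libraries. At day 3 in M-CSF alone the sums were 983, 469 and 1238 CPM in Runx1-labelled and 347, 901 and 1174 CPM in control libraries. The smallest sum of each genotype came from its low library. With these libraries included, the median log2 change of the 11 genes from day 3 to day 5 in M-CSF alone was 0.57 in Runx1-labelled and 0.45 in control cells. In each genotype 1 of 11 was called higher there, where 7.17% of all genes were higher in Runx1-labelled and 12.2% in control cells. With RANKL the median change was 0.81 in Runx1-labelled and 0.70 in control cells. With RANKL 5 of 11 were called higher in Runx1-labelled and 1 in control cells, where 17.6% and 14.1% of all genes were higher. The counts of 1 were near or under the shares of all genes.

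Cdt1 (ENSMUSG00000006585, chromosome 8, 122568015 to 122573554), the loader of the Mcm helicase, did not follow the other licensing genes. With RANKL it had 91.3, 92.4 and 99.2 CPM at day 5 and 99.0, 80.3 and 114 CPM at day 3 in Runx1-labelled cells, and 89.7, 92.7 and 99.7 CPM at day 5 and 78.6, 91.1 and 105 CPM at day 3 in control cells. In M-CSF alone it had 78.0, 80.2 and 83.9 CPM at day 5 and 51.1, 27.7 and 63.5 CPM at day 3 in Runx1-labelled cells, and 86.2, 80.9 and 83.8 CPM at day 5 and 27.1, 44.2 and 56.9 CPM at day 3 in control cells. All 6 libraries of day 3 in M-CSF alone lay below all others, and with RANKL the days overlapped. RANKL against M-CSF alone at day 3 gave a log2 difference of 1.04 (SE 0.23, adjusted p = 6.32e-04) in Runx1-labelled and 1.10 (SE 0.23, adjusted p = 4.06e-04) in control cells, and the call held under all alternatives run. At day 5 against day 3 in M-CSF alone, the log2 change was 0.77 (SE 0.23, adjusted p = 0.0312) in Runx1-labelled and 0.97 (SE 0.23, adjusted p = 0.00568) in control cells, and in Runx1-labelled cells it lost its call without any 1 of 5 single libraries of its 6.

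Mcm2 (ENSMUSG00000002870, chromosome 6, 88883474 to 88898780), a helicase subunit, shows how wide the spread of day 3 was. M-CSF alone gave it 135, 153 and 145 CPM at day 5 and 85.3, 32.2 and 142 CPM at day 3 in Runx1-labelled cells, and 142, 137 and 137 CPM at day 5 and 20.9, 82.6 and 125 CPM at day 3 in control cells. With RANKL the values were 96.2, 118 and 92.4 CPM at day 5 and 40.5, 41.1 and 64.4 CPM at day 3 in Runx1-labelled cells, and 98.1, 95.3 and 98.7 CPM at day 5 and 37.4, 51.6 and 71.9 CPM at day 3 in control cells. At day 5 every library in M-CSF alone lay above every library with RANKL, yet the log2 difference of −0.50 (SE 0.44, adjusted p = 0.368) in Runx1-labelled and −0.51 (SE 0.45, adjusted p = 0.365) in control cells was not called. The other Mcm subunits had the same order of means at day 5: with RANKL against M-CSF alone, Mcm3 differed by −0.48 in Runx1-labelled and −0.53 in control cells, Mcm4 by −0.41 in Runx1-labelled and −0.26 in control cells, Mcm5 by −0.24 in Runx1-labelled and −0.17 in control cells and Mcm6 by −0.39 in Runx1-labelled and −0.32 in control cells on the log2 scale, while Mcm7 differed by −0.02 in Runx1-labelled and 0.01 in control cells. None of these was called.

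Of the other licensing genes, Orc1 rose with the day under RANKL by 1.08 in Runx1-labelled and 1.23 in control cells on the log2 scale, called in both genotypes. Orc6, a further subunit of the origin recognition complex, rose by 0.72 in Runx1-labelled cells, and its 0.54 in control cells was not called. Cdc6, the partner of Cdt1 in loading, had the large values 1.28 in Runx1-labelled and 0.70 in control cells in that comparison, which were not called against its spread. Gmnn, the inhibitor of Cdt1, had day changes of 0.35 in Runx1-labelled and 0.33 in control cells with RANKL and 0.05 in Runx1-labelled and 0.26 in control cells in M-CSF alone, none of them called.

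Helicase activation genes rose with the day under RANKL without exception: 6 of 6 were called higher at day 5 in Runx1-labelled and 6 of 6 in control cells, with median log2 changes of 1.05 in Runx1-labelled and 0.96 in control cells. In M-CSF alone 0 of 6 were called in either genotype. Of all genes, 17.6% in Runx1-labelled and 14.1% in control cells were higher at day 5 with RANKL. In M-CSF alone 7.17% and 12.2% were higher and 7.08% and 11.5% lower, in the same order. Gins3 (ENSMUSG00000031669, chromosome 8, 95633453 to 95645060), a subunit of the GINS complex, had 13.9, 17.8 and 16.9 CPM at day 5 and 5.17, 5.58 and 7.95 CPM at day 3 with RANKL in Runx1-labelled cells, and 17.7, 16.7 and 17.2 CPM at day 5 and 4.98, 5.26 and 9.10 CPM at day 3 in control cells. Without RANKL it had 8.18, 8.27 and 7.61 CPM at day 5 and 10.2, 6.65 and 10.7 CPM at day 3 in Runx1-labelled cells, and 8.43, 8.397 and 8.45 CPM at day 5 and 5.50, 10.3 and 9.59 CPM at day 3 in control cells. The 6 libraries of day 5 with RANKL were above all 18 others. The day change with RANKL was 1.37 (SE 0.24, adjusted p = 2.14e-04) in Runx1-labelled and 1.42 (SE 0.24, adjusted p = 2.48e-04) in control cells, and RANKL exceeded M-CSF alone at day 5 by 1.01 (SE 0.23, adjusted p = 0.00105) in Runx1-labelled and 1.03 (SE 0.23, adjusted p = 9.75e-04) in control cells. Mcm10, which helps assemble the active helicase, rose with the day under RANKL by 1.17 in Runx1-labelled and 1.21 in control cells, and Cdc45, a partner of the active helicase, by 1.10 in Runx1-labelled and 0.91 in control cells. Gins4 moved least of the 6, by 0.39 in Runx1-labelled and 0.37 in control cells.

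Polymerase and primase genes behaved likewise under RANKL, with 8 of 9 called higher at day 5 in Runx1-labelled and 5 of 9 in control cells, and 0 of 9 called between the days in M-CSF alone. The shares of all genes are those given for helicase activation. Pole, the catalytic subunit of the leading strand polymerase, moved most, by 1.36 in Runx1-labelled and 1.24 in control cells on the log2 scale, and Prim1, the small primase subunit, by 1.15 in Runx1-labelled and 1.02 in control cells. Pola1, the catalytic subunit of the polymerase that extends primers, rose by 0.82 in Runx1-labelled and 0.70 in control cells. Pold3 (ENSMUSG00000030726, chromosome 7, 100082111 to 100121565), an accessory subunit of polymerase delta, was called lower with RANKL at day 5 in control cells. It had 52.4, 55.1 and 51.9 CPM with RANKL and 66.3, 62.4 and 63.9 CPM in M-CSF alone in Runx1-labelled cells at day 5, and 51.68, 49.4 and 49.0 CPM with RANKL and 66.1, 63.9 and 60.7 CPM in M-CSF alone in control cells. At day 3 the values were 36.4, 39.4 and 43.2 CPM with RANKL and 62.9, 40.7 and 61.6 CPM in M-CSF alone in Runx1-labelled cells, and 42.02, 41.1 and 42.6 CPM with RANKL and 41.3, 50.6 and 62.7 CPM in M-CSF alone in control cells. The media did not overlap at day 5 in either genotype, and the log2 difference was −0.27 (SE 0.13, adjusted p = 0.0935) in Runx1-labelled and −0.34 (SE 0.13, adjusted p = 0.0389) in control cells. That call in control cells was lost without any 1 of 5 of the 6 libraries compared.

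The clamp Pcna (ENSMUSG00000027342, chromosome 2, 132249162 to 132253314), which holds polymerases on DNA, was 282, 325 and 274 CPM at day 5 and 115, 113 and 141 CPM at day 3 with RANKL in Runx1-labelled cells, and 299, 277 and 288 CPM at day 5 and 104, 126 and 157 CPM at day 3 in control cells. In M-CSF alone it was 364, 399.7 and 427 CPM at day 5 and 259.8, 168 and 376 CPM at day 3 in Runx1-labelled cells, and 480.3, 404 and 386 CPM at day 5 and 138, 281 and 351 CPM at day 3 in control cells. The days did not overlap with RANKL, and the changes were 1.25 (SE 0.26, adjusted p = 0.00124) in Runx1-labelled and 1.16 (SE 0.26, adjusted p = 0.00306) in control cells. In M-CSF alone the changes were 0.57 (SE 0.26, adjusted p = 0.152) in Runx1-labelled and 0.72 (SE 0.26, adjusted p = 0.0484) in control cells, of which only the control value was called. That call was lost in 12 of 16 alternatives, among them DESeq2's size factors, library totals, no filter and the spread of only the 2 groups. Leaving out the 2 low libraries or any 1 of 5 of the 6 libraries compared also lost it. An annotated copy, Pcna-ps2, averaged 0.459 CPM, and reads shared with it cannot be assigned with certainty.

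The clamp loader subunits were not uniform. Rfc5 (ENSMUSG00000029363, chromosome 5, 117378103 to 117389047) had 49.5, 62.3 and 42.7 CPM at day 5 and 24.9, 24.5 and 26.02 CPM at day 3 with RANKL in Runx1-labelled cells, and 50.7, 44.5 and 44.9 CPM at day 5 and 21.1, 22.3 and 33.8 CPM at day 3 in control cells. The wells with M-CSF alone had 27.3, 31.6 and 26.4 CPM at day 5 and 44.7, 32.8 and 47.6 CPM at day 3 in Runx1-labelled cells, and 23.7, 28.8 and 27.5 CPM at day 5 and 30.4, 37.8 and 43.9 CPM at day 3 in control cells. It rose with the day under RANKL by 1.03 (SE 0.18, adjusted p = 1.97e-04) in Runx1-labelled and 0.86 (SE 0.18, adjusted p = 0.00136) in control cells. In M-CSF alone it changed by −0.55 (SE 0.18, adjusted p = 0.0392) in Runx1-labelled and −0.49 (SE 0.18, adjusted p = 0.0492) in control cells. Those last calls were lost without any 1 of 5 of the 6 libraries compared, and when the spread was taken from the 2 groups compared.

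Rfc1 (ENSMUSG00000029191, chromosome 5, 65261850 to 65335670), the large subunit of the loader, was lower with RANKL on both days. At day 5 it had 66.4, 77.2 and 70.8 CPM with RANKL and 102, 96.4 and 93.2 CPM in M-CSF alone in Runx1-labelled cells, and 70.1, 69.4 and 68.9 CPM with RANKL and 87.2, 93.6 and 85.6 CPM in M-CSF alone in control cells. At day 3 the values were 52.2, 63.2 and 56.5 CPM with RANKL and 108, 90.6 and 102 CPM in M-CSF alone in Runx1-labelled cells, and 59.5, 53.3 and 58.5 CPM with RANKL and 79.7, 92.1 and 97.4 CPM in M-CSF alone in control cells. The media did not overlap on either day. Its difference at day 5 was −0.44 (SE 0.09, adjusted p = 3.19e-04) in Runx1-labelled and −0.35 (SE 0.09, adjusted p = 0.00258) in control cells, and at day 3 −0.81 (SE 0.09, adjusted p = 1.41e-07) in Runx1-labelled and −0.65 (SE 0.09, adjusted p = 2.77e-06) in control cells, and all 4 calls held under every alternative run. Rfc2 was higher with RANKL at day 5 by 0.28 in Runx1-labelled and 0.26 in control cells, and Rfc4 by 0.64 in control cells, called, and 0.58 in Runx1-labelled cells, not called. Rfc3 was called in none of the day and RANKL comparisons.

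Among single-strand binding and maturation genes, 4 of 6 rose with the day under RANKL in Runx1-labelled and 2 of 6 in control cells, and 0 of 6 were called in M-CSF alone. The shares of all genes are again those given for helicase activation. Rpa2, a subunit of the single-strand binding protein, rose by 1.30 in Runx1-labelled and 1.08 in control cells, and Exo1 by 1.57 in Runx1-labelled and 1.22 in control cells. Lig1, which seals Okazaki fragments, was lower with RANKL at day 3 by 1.16 in Runx1-labelled and 0.98 in control cells, and Rpa1 by 0.94 in Runx1-labelled and 0.72 in control cells. Rpa3 and Fen1, the flap endonuclease, were called in none of these comparisons.

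Nucleotide supply was the role whose sum differed most by ratio between the media at day 5. Its 5 genes summed to 471, 606 and 490.3 CPM with RANKL and 295, 291 and 300 CPM in M-CSF alone in Runx1-labelled cells at day 5, and to 513, 491 and 502 CPM with RANKL and 252, 252 and 274 CPM in M-CSF alone in control cells. All 5 were called higher with RANKL in both genotypes at day 5, though the call of Rrm1 in Runx1-labelled cells, 0.65 (SE 0.21, adjusted p = 0.0146), was lost without library 2 with RANKL, without library 2 in M-CSF alone and without the set of libraries numbered 2 or that numbered 3. In M-CSF alone 3 of 5 were lower at day 5 than at day 3 in each genotype, where no licensing gene was. Of all genes, 7.08% in Runx1-labelled and 11.5% in control cells were lower there. The shares higher with RANKL than in M-CSF alone at day 5 were 27.5% and 26.4%, in the same order.

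Rrm1 (ENSMUSG00000030978, chromosome 7, 102441695 to 102469771), the large subunit of ribonucleotide reductase, had 225, 279.8 and 234 CPM at day 5 and 119.6, 124 and 161 CPM at day 3 with RANKL in Runx1-labelled cells, and 244, 241 and 240.3 CPM at day 5 and 105, 128 and 164 CPM at day 3 in control cells. In M-CSF alone it had 161, 152 and 157 CPM at day 5 and 354, 182 and 305 CPM at day 3 in Runx1-labelled cells, and 133, 135 and 133 CPM at day 5 and 158, 256 and 293 CPM at day 3 in control cells. Within each genotype, day 5 lay above day 3 in every library with RANKL and below it in every library in M-CSF alone. The change of its RANKL response with the day was 1.71 (SE 0.30, adjusted p = 5.36e-04) in Runx1-labelled and 1.68 (SE 0.30, adjusted p = 6.62e-04) in control cells. Rrm2, the small subunit, had the same directions, but its day changes of 0.87 in Runx1-labelled and 0.76 in control cells with RANKL and −0.61 in Runx1-labelled and −0.83 in control cells in M-CSF alone were not called.

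Tyms (ENSMUSG00000025747, chromosome 5, 30058202 to 30073617), thymidylate synthase, had 34.4, 46.9 and 33.4 CPM at day 5 and 14.4, 16.1 and 20.4 CPM at day 3 with RANKL in Runx1-labelled cells, and 36.8, 32.7 and 34.2 CPM at day 5 and 13.4, 13.3 and 23.1 CPM at day 3 in control cells. In M-CSF alone the values were 16.9, 18.5 and 17.1 CPM at day 5 and 41.9, 22.9 and 37.6 CPM at day 3 in Runx1-labelled cells, and 14.9, 16.8 and 15.0 CPM at day 5 and 15.9, 33.4 and 41.2 CPM at day 3 in control cells. In control cells in M-CSF alone the days overlapped, through library 1 of day 3. Its RANKL response changed with the day by 2.13 (SE 0.39, adjusted p = 7.22e-04) in Runx1-labelled and 2.01 (SE 0.39, adjusted p = 0.00138) in control cells. Tk1 (ENSMUSG00000025574, chromosome 11, 117815526 to 117826092), thymidine kinase of the salvage pathway, had 75.1, 98.3 and 70.8 CPM at day 5 and 33.4, 34.8 and 48.7 CPM at day 3 with RANKL in Runx1-labelled cells, and 87.6, 79.0 and 81.6 CPM at day 5 and 36.1, 37.4 and 51.8 CPM at day 3 in control cells. M-CSF alone gave it 43.3, 42.3 and 45.8 CPM at day 5 and 74.6, 58.0 and 105 CPM at day 3 in Runx1-labelled cells, and 40.3, 39.8 and 47.8 CPM at day 5 and 58.4, 91.5 and 107 CPM at day 3 in control cells. No day overlapped the other in either medium, and the change of response was 1.92 (SE 0.31, adjusted p = 1.99e-04) in Runx1-labelled and 1.99 (SE 0.31, adjusted p = 1.34e-04) in control cells. The interaction calls of Rrm1, Tyms and Tk1 held under every alternative run. Dut, which removes dUTP, was higher with RANKL at day 5 by 0.95 in Runx1-labelled and 0.83 in control cells, and was not called between the days in M-CSF alone, at 0.41 in Runx1-labelled and 0.30 in control cells.

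The regulators of S phase entry parted too. E2f1 (ENSMUSG00000027490, chromosome 2, 154559407 to 154569892), an activating E2F factor, was lower with RANKL on both days. At day 5 it had 55.5, 64.4 and 55.1 CPM with RANKL and 78.5, 84.1 and 82.6 CPM in M-CSF alone in Runx1-labelled cells, and 57.7, 54.2 and 56.8 CPM with RANKL and 75.9, 77.9 and 80.4 CPM in M-CSF alone in control cells. At day 3 the values were 28.1, 31.8 and 38.7 CPM with RANKL and 55.9, 48.2 and 76.4 CPM in M-CSF alone in Runx1-labelled cells, and 31.5, 33.2 and 40.3 CPM with RANKL and 39.7, 58.0 and 70.6 CPM in M-CSF alone in control cells. The media overlapped in control cells at day 3 through library 1 in M-CSF alone, and nowhere else. Differences at day 5 were −0.49 (SE 0.17, adjusted p = 0.02002) in Runx1-labelled and −0.47 (SE 0.17, adjusted p = 0.0252) in control cells, and these calls were lost without library 1 or 3 with RANKL in Runx1-labelled cells and without any library with RANKL in control cells.

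E2f2 (ENSMUSG00000018983, chromosome 4, 136172394 to 136196057), a second activating factor, had 27.2, 34.0 and 29.5 CPM at day 5 and 12.1, 21.2 and 13.1 CPM at day 3 with RANKL in Runx1-labelled cells, and 29.6, 27.4 and 28.9 CPM at day 5 and 12.7, 12.4 and 16.1 CPM at day 3 in control cells. Without RANKL it had 36.9, 42.8 and 34.2 CPM at day 5 and 63.4, 53.3 and 76.2 CPM at day 3 in Runx1-labelled cells, and 28.5, 29.9 and 33.2 CPM at day 5 and 42.7, 61.2 and 69.0 CPM at day 3 in control cells. The 6 libraries of day 3 with RANKL lay below all 18 others, and the group means were highest at day 3 in M-CSF alone. The difference between the media at day 3 was −2.06 (SE 0.20, adjusted p = 1.29e-08) in Runx1-labelled and −2.07 (SE 0.20, adjusted p = 1.36e-08) in control cells, the largest of the 52 genes in both. At day 5 the media differed by −0.33 (SE 0.19, adjusted p = 0.148) in Runx1-labelled and −0.09 (SE 0.19, adjusted p = 0.725) in control cells, which was not called.

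The cyclin E genes, whose products drive the entry kinase, were not called in any day or RANKL comparison. Ccne1 (ENSMUSG00000002068, chromosome 7, 38097984 to 38107534) had 21.1, 27.5 and 20.9 CPM at day 5 and 9.602, 8.30 and 15.2 CPM at day 3 with RANKL in Runx1-labelled cells, and 20.8, 18.1 and 21.2 CPM at day 5 and 9.15, 10.9 and 12.2 CPM at day 3 in control cells. The wells with M-CSF alone had 17.7, 19.9 and 21.1 CPM at day 5 and 16.3, 8.28 and 26.3 CPM at day 3 in Runx1-labelled cells, and 14.3, 15.9 and 19.8 CPM at day 5 and 3.82, 14.5 and 22.6 CPM at day 3 in control cells. The days did not overlap with RANKL, though the changes were 1.06 (SE 0.41, adjusted p = 0.0537) in Runx1-labelled and 0.90 (SE 0.42, adjusted p = 0.115) in control cells. Ccne2 (ENSMUSG00000028212, chromosome 4, 11191351 to 11204779) had 33.2, 42.2 and 40.2 CPM at day 5 and 17.4, 22.9 and 23.5 CPM at day 3 with RANKL in Runx1-labelled cells, and 38.4, 34.2 and 34.7 CPM at day 5 and 22.95, 19.8 and 24.01 CPM at day 3 in control cells. In M-CSF alone it had 28.8, 27.1 and 34.0 CPM at day 5 and 28.6, 8.001 and 39.5 CPM at day 3 in Runx1-labelled cells, and 19.7, 22.7 and 22.99 CPM at day 5 and 4.76, 24.6 and 39.1 CPM at day 3 in control cells. Runx1-labelled library 2 and control library 1 at day 3 in M-CSF alone held the lowest Ccne2 values of all 24.

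Of the chromatin and fork genes, Chaf1b (ENSMUSG00000022945, chromosome 16, 93883901 to 93906115), a subunit of the factor that places histones on new DNA, was higher with RANKL on both days. At day 5 it had 57.3, 49.5 and 46.6 CPM with RANKL and 27.8, 33.0 and 29.8 CPM in M-CSF alone in Runx1-labelled cells, and 43.5, 43.3 and 50.0 CPM with RANKL and 25.3, 26.9 and 27.0 CPM in M-CSF alone in control cells. At day 3 the values were 59.3, 54.5 and 46.9 CPM with RANKL and 28.3, 14.8 and 36.2 CPM in M-CSF alone in Runx1-labelled cells, and 52.1, 45.2 and 41.9 CPM with RANKL and 11.1, 26.5 and 31.3 CPM in M-CSF alone in control cells. The media did not overlap, and the differences were 0.76 (SE 0.27, adjusted p = 0.0242) in Runx1-labelled and 0.79 (SE 0.27, adjusted p = 0.0217) in control cells at day 5 and 1.02 (SE 0.27, adjusted p = 0.00315) in Runx1-labelled and 1.01 (SE 0.27, adjusted p = 0.00346) in control cells at day 3. The calls of day 5 were lost without any 1 of 4 single libraries in control cells and of 3 in Runx1-labelled cells. Its partner Chaf1a had differences of 0.06 in Runx1-labelled and 0.20 in control cells at day 5 and −0.22 in Runx1-labelled and −0.07 in control cells at day 3, none of them called. Slbp, which binds histone mRNA, was lower with RANKL at day 3 by 0.67 in Runx1-labelled and 0.59 in control cells. Dtl, part of the ligase that removes Cdt1, rose with the day under RANKL by 1.19 in Runx1-labelled cells, and its 1.05 in control cells was not called.

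The promoters of the 52 genes and of the mitosis genes were read for short motifs. RefSeq windows of build GRCm38.p6, from 250 bases before to 50 after a start site, were found for 42 of the 52 genes, as 48 windows. An E2F motif, spelled TTTCCCGC, TTTCGCGC, TTTGCCGC or TTTGGCGC on either strand, was in 17 of them (35.4%), in 1 of 24 windows of the mitosis genes (4.17%) and in 2.26% of all 32851 windows. The motif TTTGAA, known as CHR, was in 12.5% of the windows of the 52 genes, 75.0% of those of the mitosis genes and 17.9% of all, and CCAAT in 58.3%, 83.3% and 37.4%. A match describes these letters and does not show that a factor binds there. The 4 windows below are those with an E2F match whose genes changed most between the days in M-CSF alone in control cells, by 0.97 for Cdt1, −0.92 for E2f2, −0.78 for Clspn and 0.71 for Mcm6, of which those of Cdt1 and E2f2 were called. Cdt1 and E2f2 thus hold the same motif and moved in opposite directions. Positions are chr8:122567765-122568064 on the plus strand for Cdt1; chr4:136172024-136172323 on the plus strand for E2f2; chr4:126556730-126557029 on the plus strand for Clspn; chr1:128359656-128359955 on the minus strand for Mcm6. Capitals mark the E2F matches, and in Mcm6 a pair of the 3 matches overlap.
Cdt1: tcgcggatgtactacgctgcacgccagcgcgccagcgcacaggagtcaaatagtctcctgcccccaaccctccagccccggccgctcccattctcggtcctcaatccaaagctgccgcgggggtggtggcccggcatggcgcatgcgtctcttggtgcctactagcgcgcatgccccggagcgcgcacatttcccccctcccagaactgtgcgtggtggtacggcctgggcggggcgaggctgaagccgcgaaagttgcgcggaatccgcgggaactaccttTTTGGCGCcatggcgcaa
E2f2: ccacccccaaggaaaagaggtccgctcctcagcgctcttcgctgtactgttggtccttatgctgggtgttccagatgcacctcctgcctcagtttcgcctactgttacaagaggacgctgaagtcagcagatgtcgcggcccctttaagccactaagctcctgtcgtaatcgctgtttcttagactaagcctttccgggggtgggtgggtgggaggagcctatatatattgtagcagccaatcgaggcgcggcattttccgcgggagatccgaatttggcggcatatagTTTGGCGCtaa
Clspn: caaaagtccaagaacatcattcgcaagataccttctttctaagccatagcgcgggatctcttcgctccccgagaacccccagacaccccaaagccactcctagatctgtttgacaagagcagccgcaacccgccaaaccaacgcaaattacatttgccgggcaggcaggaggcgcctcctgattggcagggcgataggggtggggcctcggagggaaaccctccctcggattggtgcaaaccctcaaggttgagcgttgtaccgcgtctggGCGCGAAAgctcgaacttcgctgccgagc
Mcm6: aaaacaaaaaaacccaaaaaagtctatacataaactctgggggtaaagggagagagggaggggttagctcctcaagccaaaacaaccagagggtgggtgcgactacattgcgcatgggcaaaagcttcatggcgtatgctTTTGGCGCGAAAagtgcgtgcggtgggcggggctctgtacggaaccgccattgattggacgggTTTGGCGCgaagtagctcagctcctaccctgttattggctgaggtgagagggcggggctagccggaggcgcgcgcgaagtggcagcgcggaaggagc

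The genotype comparison asks whether the replication genes differ in cells meant to overexpress Runx1. In edgeR's test 0 of 52 genes were called in any of the 4 pairs of Runx1-labelled and control groups, and 0% of all genes were called. At an unadjusted p under 0.05 there were 1 of 52 at day 5 and 1 at day 3 with RANKL, and 0 and 1 in M-CSF alone, out of 457, 258, 948 and 530 genes in the same order. DESeq2 called 0 of the 52 in each, and 17 of all genes at day 5 in M-CSF alone and 0 in the other 3 pairs. The 52 genes had median log2 differences of 0.07 and −0.03 with RANKL at days 5 and 3, and of 0.13 and 0.13 in M-CSF alone.

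At day 5 in M-CSF alone, 22 of 52 genes had all 3 Runx1-labelled libraries above all 3 control libraries and 2 had them below, with none called. Of all genes with at least 1 CPM on average, 9.79% lay wholly above and 8.72% wholly below. The largest differences were 0.46 (95% interval −0.53 to 1.45) for Ccne2, 0.42 (−0.08 to 0.93) for Pola1 and 0.42 (−0.24 to 1.07) for Fen1. Mitosis genes had a median difference of 0.43 there, with 0 of 26 called. With the spread of the 2 groups alone, 15 of the 52 genes had an unadjusted p under 0.05 and 0 were called. The differences between genotypes of the RANKL response and of the day response were called in 0 of 52 genes and 0% of all genes in each of 4 tests, with 0 of 52 at an unadjusted p under 0.05 and 0 of 52 called by DESeq2. Of all genes, 481 and 242 had an unadjusted p under 0.05 for the RANKL response at days 5 and 3, and 225 and 338 for the day response with RANKL and in M-CSF alone.

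Other replication genes outside the list of 52 were read in the same way. Of 45 such genes in Runx1-labelled cells, 29 rose and 0 fell with the day under RANKL, and 1 rose and 3 fell in M-CSF alone. In control cells 25 rose and 1 fell with the day under RANKL, and 1 rose and 4 fell in M-CSF alone. The rises under RANKL compare with 17.6% of all genes in Runx1-labelled and 14.1% in control cells, and the counts in M-CSF alone were near or under the shares of all genes given above. Ccna2, the S and G2 phase cyclin, changed by −2.38 (SE 0.18, adjusted p = 1.08e-08) in Runx1-labelled and −2.61 (SE 0.19, adjusted p = 2.63e-09) in control cells in M-CSF alone and by 1.39 (SE 0.18, adjusted p = 1.06e-05) in Runx1-labelled and 1.33 (SE 0.18, adjusted p = 2.63e-05) in control cells with RANKL. Dbf4, the activator of the kinase that fires origins, changed by −1.34 in Runx1-labelled and −1.34 in control cells in M-CSF alone and by 0.87 in Runx1-labelled and 0.88 in control cells with RANKL, all called. Asf1b, a histone chaperone, fell by 0.99 in Runx1-labelled and 1.16 in control cells in M-CSF alone and rose by 1.41 in Runx1-labelled and 1.32 in control cells with RANKL. Ticrr, which helps activate origins, had −0.66, not called, and −0.88, called, in M-CSF alone, and rose by 1.19 in Runx1-labelled and 1.26 in control cells with RANKL.

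Among 24 upstream regulators of S phase entry in Runx1-labelled cells, 14 were higher and 3 lower at day 5 with RANKL, and 1 was higher and 6 were lower in M-CSF alone. Of all genes there, 17.6% were higher and 15.6% lower with RANKL, and 7.17% and 7.08% in M-CSF alone. In control cells 11 of the 24 were higher and 2 lower with RANKL, and 4 were higher and 6 lower in M-CSF alone. The shares of all genes in control cells were 14.1% higher and 12.7% lower with RANKL, and 12.2% and 11.5% in M-CSF alone. The kinase inhibitor genes did not share a direction. Cdkn2b was higher at day 5 than at day 3 in M-CSF alone, by 2.33 (SE 0.45, adjusted p = 0.00158) in Runx1-labelled and 3.10 (SE 0.45, adjusted p = 7.33e-05) in control cells, whereas Cdkn2c fell by 1.85 in Runx1-labelled and 2.14 in control cells and Cdkn2d by 1.58 in Runx1-labelled and 1.66 in control cells. With RANKL, Cdkn1a rose with the day by 0.91 (SE 0.15, adjusted p = 1.18e-04) in Runx1-labelled and 0.75 (SE 0.15, adjusted p = 9.14e-04) in control cells.

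Of the markers of other cells, the lymphoid sum, led by Ighm, and the erythroid and megakaryocyte sum, led by Pf4, differed between the media, and the other 3 sums overlapped. The 10 lymphoid markers summed to 0.559 to 4.07 CPM with RANKL and 17.3 to 154 CPM in M-CSF alone, and without Ighm to at most 1.22 and 2.19 CPM. The 8 erythroid and megakaryocyte markers summed to 14.1 to 89.1 CPM with RANKL and 192 to 1529.8 CPM in M-CSF alone, and without Pf4 to at most 1.15 and 1.19 CPM, with Hbb-bt at 0 counts in every library. The 10 neutrophil markers lay between 57.0 and 129 CPM with RANKL and 85.7 and 196 CPM in M-CSF alone, the 10 stromal markers between 12.1 and 303 CPM and 7.94 and 142 CPM, and the 7 progenitor markers between 4.36 and 9.86 CPM and 2.83 and 10.1 CPM. Within M-CSF alone the first 2 sums also moved with the day. The lymphoid sum was 19.8 to 27.7 CPM at day 5 and 74.2 to 119 CPM at day 3 in Runx1-labelled cells, and 17.3 to 33.8 CPM at day 5 and 76.7 to 154 CPM at day 3 in control cells. The erythroid and megakaryocyte sum was 568 to 1301 CPM at day 5 and 192 to 400.4 CPM at day 3 in Runx1-labelled cells, and 1455 to 1529.8 CPM at day 5 and 317 to 416 CPM at day 3 in control cells. Mitochondrial genes took 3.15% to 4.57% of counts with RANKL and 1.52% to 2.42% in M-CSF alone. The part of these features in the values of the replication genes was not tested.

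Some members share exons with other genes, and since no source used here gives the strand setting of the counting, their levels are uncertain. Gins2 shares 67.3% of its exon bases with Gse1 on the other strand, Chaf1a 52.5% with Ubxn6, Ccne2 17.4% with Ints8, Rfc2 15.1% with Lat2, Rfc4 12.7% with Eif4a2 and Rfc5 10.7% with Wsb2. Fen1 shares 78.8% with Gm10143, an antisense gene that averaged 0.379 CPM.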

How the data were processed

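RNA-seq was measured in 24 libraries of 8 groups of 3, all mapped to a group by their labels. The deposited table holds the authors' raw read counts per gene for 54532 genes, with no normalization. STAR, DESeq2 and GRCm39 are named in the submitters' processing notes, with versions and strand setting not given in the sources used here. Gene positions in the table equal those of GENCODE M21 (build GRCm38) for 98.3% of the 54409 identifiers found there, and coordinates are given as the table has them.

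Counts were tested with edgeR 4.0.16 (R 4.3.3, limma 3.58.1): filterByExpr kept 15035 genes (27.6%), TMM scaled the libraries, 1 coefficient per group was fitted to all 24 libraries, and a robust quasi-likelihood test was adjusted by Benjamini-Hochberg over all genes kept. A call is an adjusted p under 0.05. The procedure was tested on simulated data. CPM values use TMM-scaled library totals, and RPKM divides them by the length the table gives for each gene. Intervals cover 95%. Library sums and motif shares used Python 3.11.15 with pandas 2.3.3, and plots matplotlib 3.10.9.

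The members and lists were chosen with earlier results of these data known. Values in every library are given for Pcna, Mcm2, E2f1, E2f2, Ccne1 and Ccne2, for at most 2 called genes per role with the largest change between days in M-CSF alone in control cells, and for at most 4 genes per comparison called against the direction of most members. Non-members are named by the smallest p for the change of the RANKL response in control cells, at most 4 per list. Promoters printed are at most 4, by the largest change among genes with an E2F match. Alternatives were DESeq2's size factors, library totals, no low count filter, DESeq2's Wald test (1.42.0), only the groups compared, a replicate block, and leaving out each library or each numbered set.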

Additional observations from a re-analysis of the deposited data

Results flagged for a closer look

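The response to RANKL differed between the days, by edgeR's test of the interaction in either genotype, with adjusted p-values under 0.05 for every gene given here. The response was higher at day 5 than at day 3 for 14 of the 52 replication genes in Runx1-labelled and 12 in control cells. Among the genes with values given by library, the log2 change was 1.57 in Runx1-labelled and 1.43 in control cells for Gins3, 1.59 in Runx1-labelled and 1.35 in control cells for Rfc5, 1.71 in Runx1-labelled and 1.68 in control cells for Rrm1, 2.13 in Runx1-labelled and 2.01 in control cells for Tyms, 1.92 in Runx1-labelled and 1.99 in control cells for Tk1, and 1.73 in Runx1-labelled and 1.97 in control cells for E2f2. Outside the 52, it was 3.93 for Ccna2, 2.22 for Dbf4, 2.48 for Asf1b and 2.14 for Ticrr in control cells. Of the mitosis genes it was 5.09 for Ccnb2, 4.51 for Kif20a, 3.39 for Bub1b and 3.87 for Kif23, and of the inhibitor genes 2.40 for Cdkn2c, 2.57 for Cdkn2d, 1.10 for Cdkn1a and −4.18 for Cdkn2b, again in control cells. The 24 libraries fall in groups of 3, too few to look for single outlying samples by a rule. Besides the 2 low libraries, library 3 held the highest value of its group for most of the 52 genes at day 3. With RANKL this was so for 46 genes in Runx1-labelled and 47 in control cells, and in M-CSF alone for 40 and 48. At day 5 with RANKL, Runx1-labelled library 2 was highest for 48.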

How the results depend on the processing

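No log2 change of a named gene that was called above turned sign. Changes of named genes that were not called were not followed through the alternatives. The 8 genotype counts were 0 of 52 under every alternative. For the direct pairs of Runx1-labelled and control groups, the replicate block used the number across genotypes, though no label pairs the genotypes by number. The median day change of the 52 genes in M-CSF alone did turn without the 2 low libraries, to −0.14 in Runx1-labelled and −0.16 in control cells, and without control library 3 of day 3 9 genes were higher and 3 lower there in control cells. With the spread of only the groups compared, 45 genes rose with the day under RANKL in control cells, with RANKL at day 5 there were 17 higher and 13 lower in Runx1-labelled and 20 higher and 16 lower in control cells, 14 were lower in control cells with RANKL at day 3, in M-CSF alone at day 5 there were 0 higher and 3 lower in Runx1-labelled and 1 higher and 3 lower in control cells, and 1 had a lower response to RANKL at day 5 in control cells. Without the low count filter, there were at day 5 in M-CSF alone 0 higher and 3 lower in Runx1-labelled and 1 higher and 3 lower in control cells, and with RANKL at day 5 there were 6 higher and 1 lower in each genotype. Library totals gave at day 5 in M-CSF alone 0 higher in Runx1-labelled and 1 in control cells. DESeq2's size factors gave 1 lower response in control cells, and its Wald test 1 in each genotype. Leaving out the 2 low libraries was an alternative chosen after seeing the data, by the levels of the 52 genes themselves. With RANKL at day 3 it gave 45 lower in Runx1-labelled and 42 in control cells. In M-CSF alone at day 5 it gave 8 lower in Runx1-labelled and 10 lower and 1 higher in control cells. The response then changed upward for 40 in Runx1-labelled and 33 in control cells and downward for 1 in each. Leaving out 1 library or 1 numbered set gave, with the day under RANKL, 13 to 40 higher in Runx1-labelled and 3 to 28 in control cells, with 12 in control cells without library 1 or all 4 libraries numbered 1. In M-CSF alone it gave 0 to 6 higher and 0 to 5 lower in Runx1-labelled and 0 to 9 higher and 0 to 7 lower in control cells. With RANKL at day 3 it gave 16 to 39 lower in Runx1-labelled and 11 to 34 in control cells and 1 to 3 higher in each, and at day 5 it gave 5 to 7 higher and 1 to 2 lower in Runx1-labelled and 5 to 9 higher and 1 to 3 lower in control cells. The response changed upward for 5 to 23 in Runx1-labelled and 5 to 18 in control cells and downward for 0 to 1 in each. The fewest calls with the day under RANKL came without the sets numbered 2. Fits without a set leave 2 libraries in a group. The replicate block, with the number within genotype as a term, gave, with the day under RANKL, 41 genes higher in Runx1-labelled and 32 in control cells, 2 higher at day 5 in M-CSF alone in Runx1-labelled cells, and 1 with a lower response in each. The labels do not say that a number pairs libraries, and within a genotype the correlation of same-numbered libraries' deviations from their group means lay between −0.0658 and 0.369, above 0.1 in 15 of 36 pairs, although 22 of 24 libraries correlated best with their own number. Between genotypes, same-numbered libraries correlated at −0.121 to 0.461, above 0.1 in 11 of 48 pairs, and 12 of 24 correlated best with their own number. For the day and RANKL comparisons, shares of all genes are given only for the main fit and for fits without the 2 low libraries. Counts from the other alternatives are therefore not set against a background. The cause of the shifts in these counts was not tested. Of the alternatives for named genes, 168 lost their call and 1196 kept it. Depth gave every member at least 51 reads in each library.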
